A study of Mus musculus with 24 samples.

Results

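The comparison described here set 4 libraries whose names end in Oli_ISR against 4 whose names end in Sal003, and its question was which genes differed between these inhibitor treatments when both were given together with interleukin-4 (IL-4) and interleukin-13 (IL-13). Members were taken by the ending of the column name in the deposited gene count table, which gave 8 of the 24 libraries in the series. All 8 came from bone marrow-derived macrophages (BMDMs) of wild-type C57BL/6J mice, female and 9 weeks old, after 6 days of differentiation in medium with macrophage colony-stimulating factor (M-CSF). Mice 1, 2, 4 and 5 each gave 1 library per group, and values are given in that order throughout. Cells of both groups were pretreated with inhibitor for 1 h and then kept for 24 h with the inhibitor and both cytokines, each at 20 ng/ml. Sal003 was used at 10 µM and oligomycin at 1 µM, so the doses of the compounds differ and each group stands for 1 dose.

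The labels disagree on whether the Oli_ISR libraries also received ISRIB at 1 µM. Their titles, treatment entries and the wording of their descriptions name IL-4, IL-13 and oligomycin and no ISRIB. The library names, which the descriptions also hold, and the replicate tags carry Oli_ISR instead. The 4 libraries named Oligo show the opposite conflict. ISRIB is in their titles, treatment entries and the wording of their descriptions, and not in their library names or replicate tags. Whether the names of both groups were exchanged was not tested. No measured value was used to settle this, and the group is called the Oli_ISR libraries below. The 4 libraries with IL-4 and IL-13 alone and the 4 naive libraries of the same mice, which had neither cytokine nor inhibitor, are given as background.

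Oligomycin blocks the mitochondrial ATP synthase. Sal003 keeps the translation initiation factor eIF2α phosphorylated by inhibiting its dephosphorylation, and phosphorylated eIF2α is the core signal of the integrated stress response (ISR): general protein synthesis falls while the transcription factor ATF4 is made and switches on genes of amino acid supply, tRNA charging and redox balance. ISRIB acts on eIF2B, the exchange factor of eIF2, and makes translation less sensitive to eIF2α phosphorylation. IL-4 and IL-13 signal through STAT6 and bring macrophages into a state marked by *Arg1*, *Retnla*, *Chil3* and *Mrc1*.

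The leading differences were higher levels of ISR genes and lower levels of mitochondrially encoded mRNAs in the Oli_ISR libraries, with IL-4/IL-13 markers that moved in both directions. Of 13679 genes tested, 2532 (18.5%) differed at an adjusted *P* below 0.05, of which 1333 (9.74%) were higher and 1199 (8.77%) lower in the Oli_ISR libraries. These shares are the background for each count of list members below. Most differences were small: 68 genes (0.497%) differed by at least 2.5-fold as well, 43 higher (0.314%) and 25 lower (0.183%), and 9747 genes (71.3%) had a 95% interval that lay within 1.5-fold of no difference. The median log2 difference over all genes was -0.0017, with 5% of genes below -0.43 and 5% above 0.55. In 3107 genes (22.7%) all 4 libraries of one group lay above all 4 of the other, the background for each statement below that groups did not overlap. Against the libraries with IL-4 and IL-13 alone, 7428 genes (54.3%) differed in the Oli_ISR and 6917 (50.6%) in the Sal003 libraries, and these comparisons share the cytokine libraries. All these counts come from a fit without a mouse term. With mouse as a block in a fit to the 8 libraries, more genes passed between Oli_ISR and Sal003. Of 12448 tested, 1986 were then higher and 2141 lower at adjusted *P* below 0.05.

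Library sizes overlapped, at 18514993 to 26725278 counts in genes for Oli_ISR and 18674060 to 20547790 for Sal003. Levels are given as CPM, counts scaled to a common library total, after scaling for library composition, and differences as log2 Oli_ISR minus Sal003 with the standard error (SE). Adjusted *P* values are from the quasi-likelihood test of edgeR, adjusted over all tested genes by the method of Benjamini and Hochberg. The 14 macrophage markers, among them *Adgre1*, *Csf1r* and *Cd68*, summed to 15990 to 17760 CPM in the Oli_ISR libraries and 16530 to 18200 CPM in the Sal003 libraries, so markers of the labeled cell type were abundant in both. Of the 14, *Itgam* and *Cd14* were higher, by 0.34 ± 0.09 and 0.28 ± 0.09, and *Maf* and *Mertk* were lower, at -0.52 ± 0.07 and -0.38 ± 0.09. The call of *Cd14* was lost in the fit to the 8 libraries alone (adjusted *P* = 0.0557), without mouse 1 (0.208, its highest over all alternatives), 2 or 5, and without any of 5 single libraries, those of mice 1 and 4 from Oli_ISR and of mice 1, 2 and 5 from Sal003. That of *Itgam* was lost without mouse 1 (0.0625, its highest) or the Sal003 library of mouse 5 (0.0508). In bulk RNA of this kind, fewer cells of a type and less RNA per cell cannot be told apart.

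*Chac1*, which encodes a glutathione-degrading enzyme and is a target of ATF4, had the largest rise. Its level was 19.2, 18.8, 17.1 and 18.3 CPM in the Oli_ISR libraries and 2.49, 2.26, 1.36 and 2.57 CPM in the Sal003 libraries. The lowest Oli_ISR library was thus well above the highest Sal003 library, and the log2 difference was 3.07 ± 0.11, or 8.39-fold (adjusted *P* = 1.16e-15). *Trib3*, a pseudokinase induced by ATF4 and CHOP, stood at 149.8, 139.9, 148 and 148 CPM against 38.2, 31.4, 27.2 and 38.5 CPM, a log2 difference of 2.11 ± 0.08 (adjusted *P* = 1.16e-15). *Asns*, asparagine synthetase, stood at 151, 141, 150.1 and 139.6 CPM against 41.1, 36.4, 29.8 and 42.7 CPM, a log2 difference of 1.95 ± 0.09 (adjusted *P* = 1.81e-14). None of the 3 genes overlapped between the groups. With IL-4 and IL-13 alone they were at 0.158 to 0.504, 3.16 to 4.29 and 7.26 to 9.35 CPM, so the Sal003 libraries too were above the cytokine libraries, with log2 differences of 2.65, 3.24 and 2.21 that all passed the test. The Oli_ISR differences from the same cytokine libraries were 5.72, 5.35 and 4.16.

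**Figure D1:**
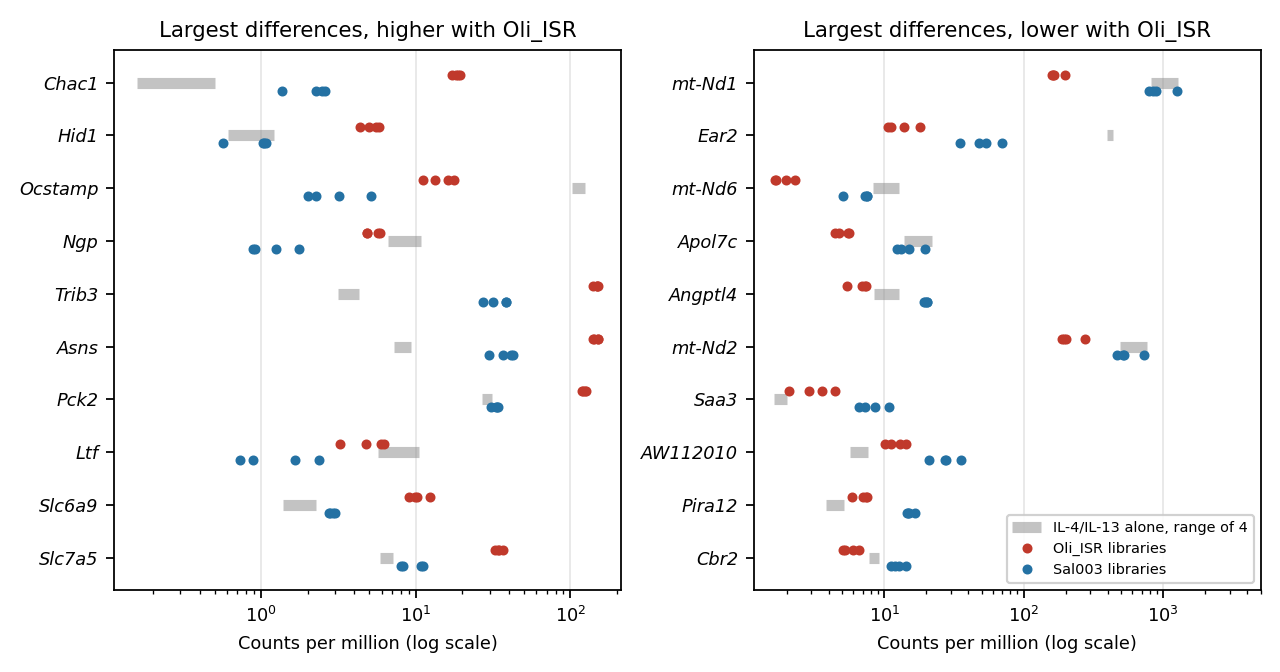
Level of the 10 genes with the largest rises and the 10 with the largest falls, as CPM on a log axis, with 1 point per library and gray bars for the range of the 4 libraries with IL-4 and IL-13 alone. The 4 Oli_ISR points for *Chac1* sit between 17.1 and 19.2 CPM and the 4 Sal003 points between 1.36 and 2.57 CPM, and the points of *mt-Nd1* stand in the opposite order.

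The ISR group as a whole moved one way. Among 17 tested ISR effectors, 15 rose, none fell and 2 did not pass, with a median log2 difference of 0.88. The transcription factor *Atf4* itself was at 480.0, 461, 466 and 505 CPM against 214, 193, 173 and 245 CPM, a difference of 1.21 ± 0.07 (adjusted *P* = 1.06e-11). *Sesn2*, a stress-induced regulator of mTORC1, differed by 1.32 ± 0.06 and *Gdf15*, a secreted stress cytokine, by 1.32 ± 0.10 (adjusted *P* = 6.21e-14 and 1.14e-09). *Ddit3*, which encodes CHOP, was higher by 0.96 ± 0.10, but 75.3% of its 31-base transcript words also occur in other genes, so its count is uncertain. *Atf3* had the smallest rise of the named effectors, 0.41 ± 0.05, and *Tnfrsf10b*, a death receptor gene, did not pass at -0.20 (adjusted *P* = 0.513).

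A list of 8 ISR genes that the study names contained 7 that rose and none that fell, with a median of 1.04. The list was put together with earlier results of these data known, so its direction is not independent evidence. *Slc25a33*, a mitochondrial pyrimidine nucleotide carrier, was higher by 1.08 ± 0.13, and *Shmt2*, the mitochondrial serine hydroxymethyltransferase, by 0.71 ± 0.05. The cytokine gene *Il6* did not pass, at 0.921, 0.882, 0.735 and 0.697 CPM against 0.571, 0.564, 0.283 and 0.721 CPM (adjusted *P* = 0.236).

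Genes that supply amino acids to the cell were raised with the effectors. Of 15 genes of amino acid and one-carbon synthesis, 10 rose and 1 fell, with a median of 0.98. *Mthfd2*, a mitochondrial folate enzyme, rose by 1.83 ± 0.07 and *Aldh18a1*, which starts proline synthesis, by 1.43 ± 0.06. *Psat1*, of serine synthesis, was at 46.1, 33.4, 41.6 and 31.4 CPM against 17.2, 13.8, 16.6 and 11.2 CPM, a difference of 1.37 ± 0.13 (adjusted *P* = 1.74e-08). With the cytokines alone it was at 37.1 to 40.4 CPM, from which the Oli_ISR libraries differed by -0.03 on the log2 scale (adjusted *P* = 0.862) and the Sal003 libraries by -1.40 (adjusted *P* = 9.78e-10). *Mthfd1*, the cytosolic counterpart of the folate enzymes, was the gene that fell, at -0.26 ± 0.06. *Pck2*, the mitochondrial phosphoenolpyruvate carboxykinase, stood at 124, 120.1, 126 and 119 CPM against 30.6, 33.0, 33.7 and 33.4 CPM, 3.74-fold higher (log2 1.90 ± 0.06, adjusted *P* = 2.22e-17). In the cytokine libraries *Pck2* was at 26.8 to 31.1 CPM, and the Sal003 libraries were only 0.17 above them on the log2 scale (adjusted *P* = 0.0194).

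Of 15 amino acid transporter genes, 9 rose and 2 fell, with a median of 0.38. *Slc7a5*, the light chain of a large neutral amino acid exchanger, was at 36.9, 32.7, 34.2 and 34.3 CPM against 10.8, 8.06, 8.32 and 11.2 CPM, a log2 difference of 1.84 ± 0.09 (adjusted *P* = 6.21e-14). The cationic amino acid transporter *Slc7a1* was higher by 1.81 ± 0.08, the glycine transporter *Slc6a9* by 1.85 ± 0.14 and the neutral amino acid transporter *Slc1a4* by 1.46 ± 0.11, with 30.5% of the words of *Slc6a9* shared with other genes. *Slc36a1*, a proton-coupled transporter of the lysosome, fell by 0.29. Cytosolic aminoacyl-tRNA synthetases, which load tRNAs with amino acids, included 14 of 20 that rose and none that fell, with a median of 0.44. *Aars1* differed by 1.04 ± 0.06, *Cars1* by 1.02 ± 0.05, *Mars1* by 0.97 ± 0.05 and *Yars1* by 0.92 ± 0.05, whereas *Hars1* and *Qars1* were at -0.06 and 0.01 with adjusted *P* values of 0.533 and 0.890.

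The machinery around eIF2 did not move as a group. Of its 17 genes, 3 rose and 3 fell, with a median of -0.04. *Ppp1r15a*, the stress-induced subunit of the eIF2α phosphatase, was at 59.5, 57.9, 67.2 and 68.5 CPM against 31.8, 29.7, 27.2 and 37.7 CPM, a log2 difference of 1.00 ± 0.09 (adjusted *P* = 8.96e-09), and the Sal003 libraries differed by 0.15 from the cytokine libraries at 26.2 to 31.7 CPM (adjusted *P* = 0.173). *Ppp1r15b*, the constitutive subunit, differed by 0.24 ± 0.06 and *Eif2s2*, the β subunit of eIF2, by 0.61 ± 0.04. *Eif2ak3*, which encodes the eIF2α kinase PERK, was lower by 0.32 on the log2 scale, a call lost without mouse 2 (adjusted *P* = 0.0614, and at most 0.0614 over all alternatives). *Eif2b1*, of the exchange factor that ISRIB binds, differed by -0.20 ± 0.06 (adjusted *P* = 0.0175).

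Promoter windows of genes from both directions are shown because 2 known elements recur in the ISR and the ER folding lists: TGATGNAA, the core bound by CHOP, ATF4 and C/EBP dimers, and the endoplasmic reticulum (ER) stress element bound by NF-Y and ATF6, which is CCAAT and CCACG with 9 bases of any kind between them. Windows ran from 250 bases before to 30 bases after the start of the Ensembl canonical transcript (GENCODE mouse release 39, GRCm39), both strands were searched, and a match in letters is not shown to be a bound site. Capitals mark a match in either orientation. *Chac1* (chr2:119181439-119181718, plus strand), *Pck2* (chr14:55777473-55777752, plus strand), *Atf3* (chr1:190915508-190915787, minus strand) and *Aars1* (chr8:111760258-111760537, plus strand) hold the first element, *Aars1* at 2 places.
Chac1: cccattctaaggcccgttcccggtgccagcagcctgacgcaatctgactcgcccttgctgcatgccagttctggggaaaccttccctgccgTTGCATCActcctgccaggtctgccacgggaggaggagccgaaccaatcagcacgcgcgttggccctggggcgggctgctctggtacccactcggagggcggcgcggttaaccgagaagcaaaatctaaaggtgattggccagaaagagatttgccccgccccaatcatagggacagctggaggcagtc
Pck2: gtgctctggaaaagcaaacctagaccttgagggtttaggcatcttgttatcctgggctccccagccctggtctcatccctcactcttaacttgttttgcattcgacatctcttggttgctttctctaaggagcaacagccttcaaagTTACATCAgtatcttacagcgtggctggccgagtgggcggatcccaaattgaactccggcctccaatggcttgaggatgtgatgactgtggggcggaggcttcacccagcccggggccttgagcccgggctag
Atf3: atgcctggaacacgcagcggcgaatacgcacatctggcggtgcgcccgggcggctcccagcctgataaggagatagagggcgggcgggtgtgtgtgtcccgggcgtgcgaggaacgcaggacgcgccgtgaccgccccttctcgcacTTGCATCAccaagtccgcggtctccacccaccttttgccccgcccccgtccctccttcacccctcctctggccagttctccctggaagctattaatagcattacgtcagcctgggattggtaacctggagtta
Aars1: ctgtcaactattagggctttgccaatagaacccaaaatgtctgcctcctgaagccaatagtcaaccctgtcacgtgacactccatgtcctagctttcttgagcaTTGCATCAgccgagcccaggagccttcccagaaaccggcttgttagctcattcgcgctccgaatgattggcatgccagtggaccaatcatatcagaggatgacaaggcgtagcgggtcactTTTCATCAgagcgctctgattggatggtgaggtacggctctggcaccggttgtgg
*Calr* (chr8:85573638-85573917, minus strand) and *Creld2* (chr15:88703563-88703842, plus strand) hold the second.
Calr: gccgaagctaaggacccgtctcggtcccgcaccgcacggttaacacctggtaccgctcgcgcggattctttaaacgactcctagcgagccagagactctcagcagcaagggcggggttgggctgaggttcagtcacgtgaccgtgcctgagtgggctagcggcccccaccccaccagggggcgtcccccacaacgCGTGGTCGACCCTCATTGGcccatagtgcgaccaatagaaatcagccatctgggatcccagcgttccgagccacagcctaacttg
Creld2: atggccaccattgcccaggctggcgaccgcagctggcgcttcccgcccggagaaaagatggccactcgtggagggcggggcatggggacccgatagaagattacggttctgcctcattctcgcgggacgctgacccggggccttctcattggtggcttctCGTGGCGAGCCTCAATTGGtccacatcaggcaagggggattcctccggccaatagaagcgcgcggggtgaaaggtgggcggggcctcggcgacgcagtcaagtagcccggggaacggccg
TGATGNAA was in 351 of 13622 windows (2.58%). It was in 4 of the 43 genes higher by at least 2.5-fold (9.30%), namely *Chac1*, *Pck2*, *Gm36043* and *Gm43890*, and in 2 of the 22 windows of genes lower by that much (9.09%). At adjusted *P* below 0.05 alone, 53 of 1329 windows of genes that rose (3.99%) and 23 of 1194 that fell (1.93%) held it. Among the ISR effectors 5 of 17 held it (29.4%), among the amino acid and one-carbon genes 3 of 15 (20%) and among the tRNA synthetases 3 of 20 (15%). Other lists ranged from 0% to 15%. At their upper end were 3 of 20 inflammatory genes (15%), 2 of 15 amino acid transporters (13.3%) and 2 of 17 eIF2 genes (11.8%). Of the 8 ISR genes that the study names, 1 held it (12.5%), *Ddit3*. The windows of *Atf4*, *Trib3* and *Asns* thus had no match. The ER stress element was in 17 of all windows (0.125%) and in 9 of the 22 ER chaperone genes (40.9%). At adjusted *P* below 0.05 it occurred in 9 of 1194 windows of genes that fell and in 0 of 1329 windows of genes that rose. Of the windows of genes higher or lower by at least 2.5-fold, 0 of 43 and 0 of 22 held it.

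Genes of ER protein folding went the other way. Of 22 ER chaperone and unfolded protein response genes, 13 fell and 4 rose, with a median of -0.25. *Calr*, the calcium-binding lectin chaperone calreticulin, was at 1260, 1347, 1219 and 1306 CPM in the Oli_ISR libraries and 2230, 2221, 2334 and 2182 CPM in the Sal003 libraries, 1.75-fold lower (log2 -0.81 ± 0.06, adjusted *P* = 2.66e-10). Its cytokine range was 1832 to 2078 CPM, so the Oli_ISR libraries were below it while Sal003 was higher than the cytokine libraries by 0.21 on the log2 scale. *Sdf2l1* differed by -0.62 ± 0.08, the protein disulfide isomerase *Pdia4* by -0.55 ± 0.06 and *Creld2* by -0.52 ± 0.07. The 4 that rose were *Ern1*, which encodes the stress sensor IRE1α (0.81 ± 0.08), *Herpud1* (0.48 ± 0.08), *Atf6* (0.32 ± 0.09) and *Dnajb9* (0.23 ± 0.06).

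Lower mitochondrially encoded mRNA was the leading fall. These 13 genes lie on mitochondrial DNA (mtDNA) and encode subunits of the respiratory chain and of the ATP synthase. Of the 7 with enough counts to test, 5 fell and none rose, with a median of -0.74. *mt-Nd1*, a complex I subunit gene, was at 161, 166, 198 and 158 CPM in the Oli_ISR libraries and 849, 885, 1258 and 794 CPM in the Sal003 libraries. The groups did not overlap, and the log2 difference was -2.47 ± 0.17, or 5.55-fold lower (adjusted *P* = 7.56e-11). The cytokine libraries were at 819 to 1276 CPM, so the Sal003 libraries were not distinguishable from them (log2 -0.11, adjusted *P* = 0.606).

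*mt-Nd6*, the complex I gene on the other strand of mtDNA, was at 1.68, 1.65, 1.98 and 2.28 CPM against 5.09, 7.22, 7.47 and 7.46 CPM (log2 -1.82 ± 0.20). *mt-Nd2* was at 199, 193, 273 and 188 CPM against 516, 521, 732 and 468 CPM (log2 -1.39 ± 0.16). Both groups of 4 stayed apart in each gene. *mt-Cytb*, of complex III, differed by -0.74 ± 0.17 and *mt-Nd5* by -0.71 ± 0.19, and the second call was lost without the Sal003 library of mouse 4 (adjusted *P* = 0.0537, its highest over all alternatives). *mt-Nd4* and *mt-Co1* did not pass, with intervals of -0.71 to -0.03 and -0.68 to -0.02, but both passed when mouse was a block within the 8 libraries (adjusted *P* = 4.45e-06 and 2.91e-05, with highest values of 0.502 and 0.534 over all alternatives). Both also passed without the filter on low counts (adjusted *P* = 0.0166 and 0.0234), and *mt-Nd4* without the Oli_ISR library of mouse 4 (0.0367).

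Against IL-4 and IL-13 alone, the mtDNA genes did not fall evenly in the Sal003 libraries. The log2 difference of Sal003 was -1.77 for *mt-Cytb*, -1.53 for *mt-Nd4*, -1.36 for *mt-Nd5* and -1.36 for *mt-Co1*, but -0.13 for *mt-Nd2* and -0.11 for *mt-Nd1*. In the Oli_ISR libraries the values ran from -2.58 for *mt-Nd1* to -1.52 for *mt-Nd2*. Nuclear copies of mtDNA bear on how well reads were assigned: *mt-Nd1* has 0% of its 31-base words in the nuclear genome, *mt-Nd4* 63.0% and *mt-Co1* 63.9%, and the 6 genes that were too low to test had 99.1% to 100% of theirs there.

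**Figure D2:**
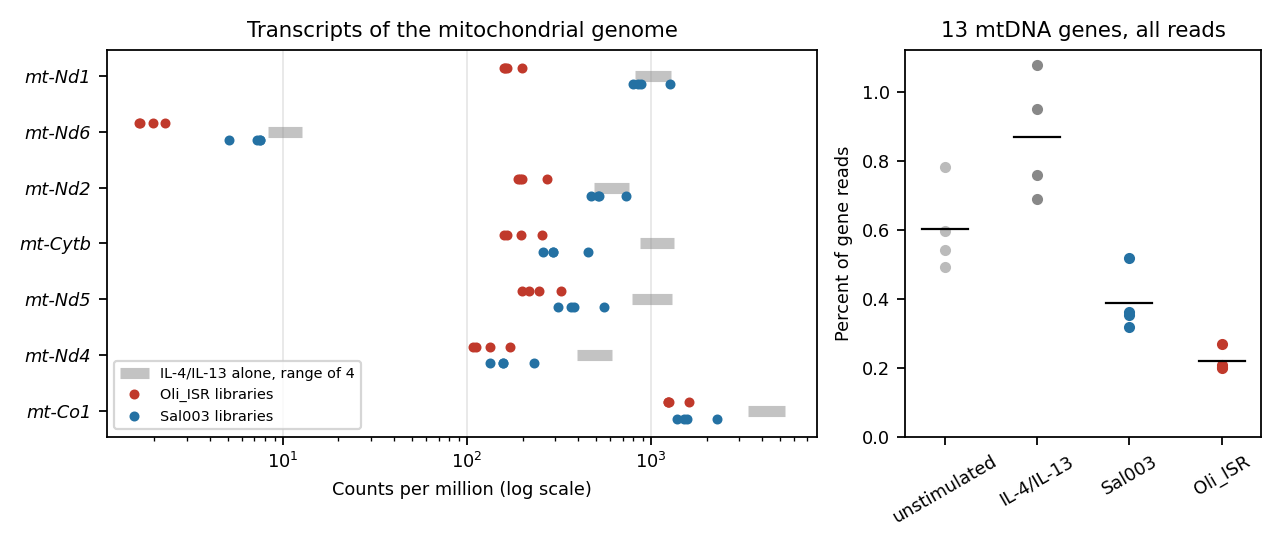
Left, level of the 7 tested mtDNA genes in CPM on a log axis, with 1 point per library and gray bars for the range with IL-4 and IL-13 alone. Right, percent of gene counts from the 13 mtDNA genes in each library of 4 groups (unstimulated is the naive group), with a line at each mean. All 4 Oli_ISR shares lie between 0.198% and 0.269%, under the 4 Sal003 shares of 0.317% to 0.518%.

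Summed over all 13 genes, the mtDNA share of counts was 0.208%, 0.201%, 0.269% and 0.198% in the Oli_ISR libraries and 0.351%, 0.361%, 0.518% and 0.317% in the Sal003 libraries. The means were 0.219% ± 0.034 and 0.387% ± 0.089 (SD, n = 4), beside 0.868% ± 0.178 with IL-4 and IL-13 alone. The difference of -0.168 percentage points gave *P* = 0.0286 in a two-sided exact permutation test, the smallest that 4 against 4 allows, and 0.125 in an exact test that flips signs within mice, the smallest that 4 pairs allow. All 4 mice had the lower share in the Oli_ISR library. The share sums the same counts as the single genes above, so it does not add separate evidence.

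Nuclear genes of the same complexes moved little. Of 16 nuclear ATP synthase subunit genes, whose complex is the target of oligomycin, 4 fell and none rose (median -0.13), and with mouse as a block within the 8 libraries 12 fell. *Atp5mc3*, a gene of the c subunit, differed by -0.33 ± 0.10 (adjusted *P* = 0.0185), while *Atp5f1b*, the β subunit, was at -0.09 with an interval of -0.20 to 0.02. Nuclear respiratory chain genes had 2 of 16 lower (median -0.09), or 7 with that block. Of 13 mitochondrial chaperone and protease genes, 3 rose: *Hspa9*, the matrix HSP70, by 0.74 ± 0.05, the protease gene *Lonp1* by 0.52 ± 0.05 and the co-chaperone gene *Dnaja3* by 0.47 ± 0.04. The chaperonin gene *Hspe1* was at -0.02 (adjusted *P* = 0.918).

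IL-4/IL-13 marker genes moved in both directions. Of 25 markers, 5 were higher, 4 lower and 16 did not pass, a larger share of calls than the 18.5% of all tested genes. An interval within 1.5-fold of no difference was found for 15 of 25, a smaller share than the 71.3% of all tested genes. Their median log2 difference was -0.06. *Egr2*, a STAT6-dependent transcription factor, was at 237, 234, 235 and 241 CPM against 249, 245, 263 and 233 CPM, with an interval of -0.19 to 0.06 around -0.06. *Pdcd1lg2*, the gene of PD-L2, was at 74.8, 70.3, 65.9 and 63.6 CPM against 70.0, 64.5, 71.0 and 69.5 CPM, with an interval of -0.13 to 0.12. For both genes the groups overlapped and the interval lay well inside 1.5-fold. *Clec7a* and *Ptgs1* had intervals of -0.21 to 0.03 and -0.10 to 0.21.

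Some markers that did not pass between the inhibitor groups were far below the cytokine libraries in both groups. *Ptgs1*, cyclooxygenase 1, was lower than with the cytokines alone by 1.24 in the Oli_ISR libraries and by 1.29 in the Sal003 libraries on the log2 scale. *Ccl24*, a chemokine of type 2 responses, was lower by 2.98 and 2.84, and *Cish*, a feedback inhibitor, by 1.67 and 1.51. Between the inhibitor groups the intervals of these genes were -0.10 to 0.21, -0.60 to 0.33 and -0.40 to 0.08, and that of *Ccl24* reached just past 1.5-fold lower. *Chil3*, a chitinase-like protein gene, was at 2765, 1860, 2853 and 1453 CPM against 2548, 2181, 2615 and 1403 CPM, overlapping, with an interval of -0.36 to 0.42 and 36.8% of its words shared with other genes.

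**Figure D3:**
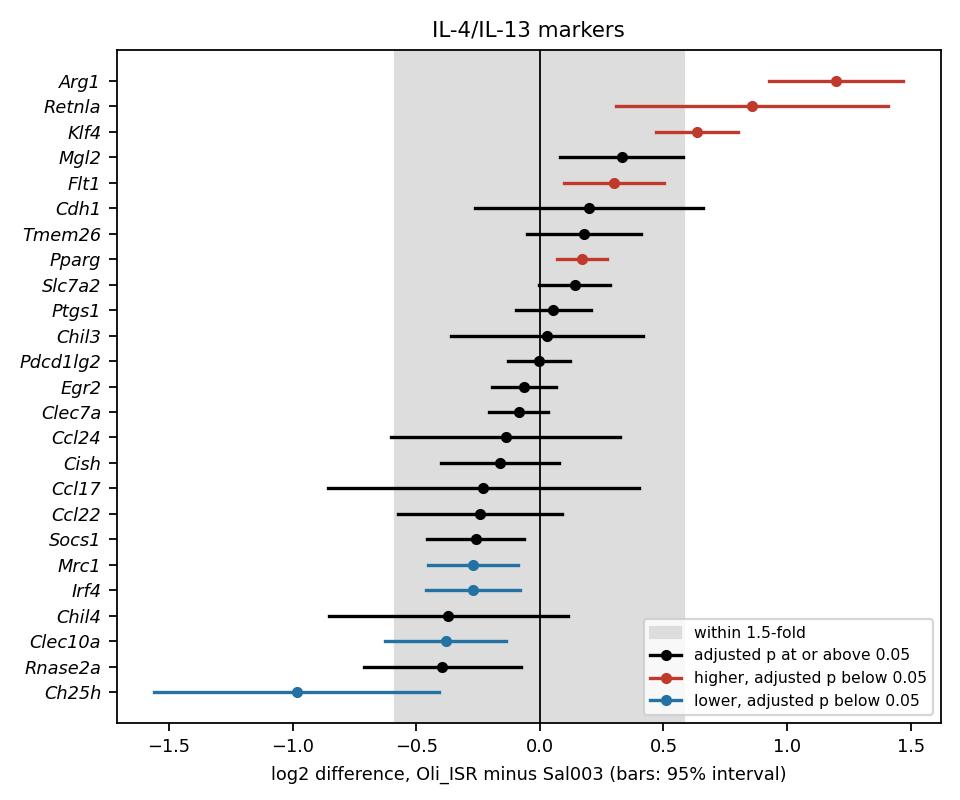
Log2 difference Oli_ISR minus Sal003 with 95% interval for each of the 25 IL-4/IL-13 markers, with a line at no difference and a shaded band within 1.5-fold. *Arg1* lies farthest to the right at 1.2 and *Ch25h* farthest to the left at -0.98.

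*Arg1*, arginase 1, was the marker with the largest rise. It stood at 336, 304, 296 and 244 CPM in the Oli_ISR libraries and 154, 133, 132 and 94.9 CPM in the Sal003 libraries, with no overlap and the Oli_ISR value higher in each of the 4 mice. The log2 difference was 1.2 ± 0.13, or 2.30-fold (adjusted *P* = 3.63e-07), and it passed under all alternatives. Both groups were below the cytokine range of 405 to 476 CPM, by 0.62 and 1.82 on the log2 scale. *Klf4*, a transcription factor that cooperates with STAT6, was at 198, 165, 186 and 172 CPM against 121, 112, 119.8 and 110.4 CPM (log2 0.64 ± 0.08, adjusted *P* = 2.61e-06), and here the Oli_ISR libraries differed by -0.07 from the cytokine libraries at 179.9 to 198 CPM (adjusted *P* = 0.472).

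*Retnla*, the resistin-like gene FIZZ1, was at 348, 224, 388 and 161 CPM against 150.0, 141, 259 and 67.9 CPM. Although higher in the Oli_ISR library of each of the 4 mice, the groups overlapped, and the difference of 0.86 ± 0.27 passed narrowly (adjusted *P* = 0.0251). It was lost with DESeq2 (adjusted *P* = 0.121), in the fit to the 8 libraries alone (0.131) and without mouse 1 (0.163, the highest over all alternatives), mouse 2, the Oli_ISR library of mouse 1 or 4, or the Sal003 library of mouse 1, 2 or 5. Both groups were far below the cytokine range of 7161 to 8060 CPM. *Flt1* and *Pparg* were higher by 0.30 ± 0.10 and 0.17 ± 0.05, and *Clec10a*, *Irf4*, *Mrc1* and *Ch25h* were lower, with log2 differences of -0.38 ± 0.12, -0.27 ± 0.09, -0.27 ± 0.09 and -0.98 ± 0.28. Each of these 6 calls was lost when mouse 1 was left out, with adjusted *P* of 0.0514 to 0.118, and by leaving out 1 library, that of mouse 5 from Sal003 for *Pparg* and from Oli_ISR for the other 5. Leaving out mouse 2 also ended the calls of *Flt1*, *Pparg*, *Clec10a* and *Irf4*. Without mouse 4 those of *Pparg*, *Clec10a*, *Irf4* and *Mrc1* were lost, and without mouse 5 those of *Pparg*, *Clec10a*, *Mrc1* and *Ch25h*. Other single libraries that ended at least 1 of these calls were the Oli_ISR libraries of mice 1 and 2 and the Sal003 libraries of mice 1, 2 and 4. The highest adjusted *P* over all alternatives was 0.244, for *Irf4*. The markers *Mgl2*, *Socs1* and *Rnase2a* passed with mouse as a block (adjusted *P* = 0.00278, 0.0191 and 0.000524, against 0.0573, 0.0603 and 0.0787 without it), with highest values of 0.217, 0.228 and 0.335 over all alternatives.

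Beyond the markers, 737 genes (5.39%) were raised by IL-4 and IL-13 by at least 2.5-fold against the naive group. Of these, 107 (14.5%) were higher and 66 (9.0%) lower in the Oli_ISR than in the Sal003 libraries, beside 9.74% and 8.77% of all genes, and 564 (76.5%) did not pass. Their median log2 difference was 0.03, with 5% of them below -0.75 and 5% above 0.97. Only 301 (40.8%) had an interval within 1.5-fold, beside 71.3% of all genes, so for many of them the data do not bound the difference tightly. Against the cytokine libraries, which both comparisons share, their median was -1.25 for Oli_ISR and -1.36 for Sal003.

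**Figure D4:**
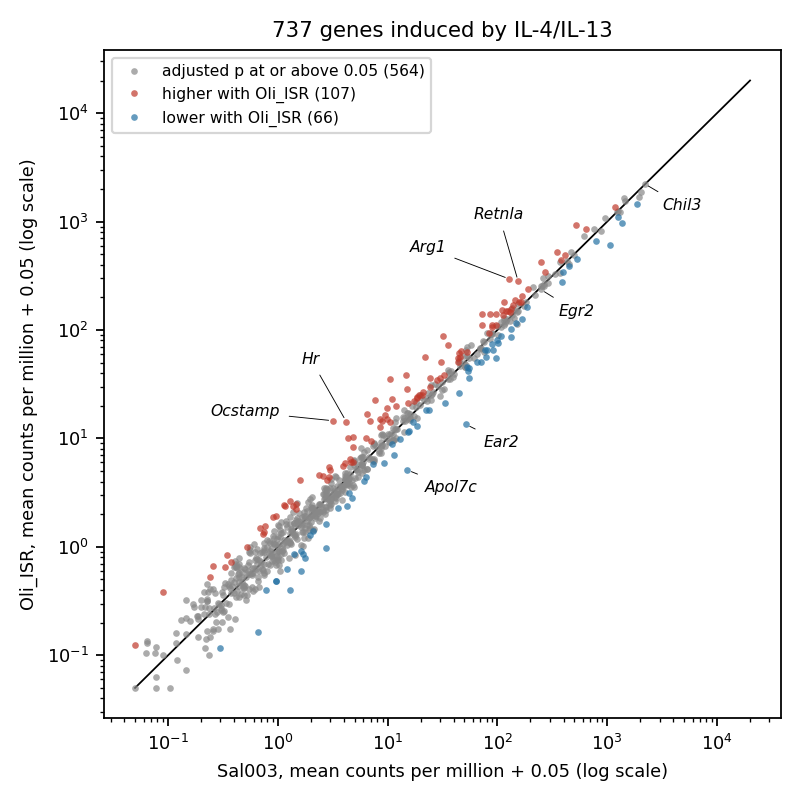
Mean CPM (plus 0.05, log axes) of the 737 induced genes in the Sal003 libraries (horizontal) and the Oli_ISR libraries (vertical), with the line of equal levels. The 107 genes higher and the 66 lower with Oli_ISR are colored, and most of the other 564 lie along the line.

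Among induced genes, the largest rises between the inhibitor groups were those of *Ocstamp*, *Hr*, *Lrrc32*, *Penk*, *Rassf8* and *Gm38575*. *Ocstamp*, which encodes a membrane protein of osteoclast and giant cell fusion, was at 16.1, 13.3, 17.5 and 11.1 CPM against 3.17, 2.26, 5.10 and 2.01 CPM, with 102 to 124 CPM in the cytokine libraries (log2 2.21 ± 0.21, adjusted *P* = 2.75e-08). *Dcstamp*, its partner in fusion, was at 17.1, 17.5, 19.2 and 13.2 CPM against 7.47, 5.53, 7.87 and 4.94 CPM (log2 1.37 ± 0.13), with 33.7% of its words shared. Both genes stayed far below the cytokine range in both groups. *Hr*, a histone demethylase and nuclear receptor corepressor gene, differed by 1.78 ± 0.19 and *Lrrc32*, which encodes the TGF-β docking protein GARP, by 1.74 ± 0.21. *Penk*, proenkephalin, was at 23.6, 23.0, 23.1 and 20.2 CPM against 7.94, 7.84, 9.0 and 5.51 CPM, with a cytokine range of 20.6 to 22.8 CPM, and was lower than that range in all 4 Sal003 libraries (log2 1.57 ± 0.13). *Rassf8* showed the same order, with 104, 73.7, 100.0 and 77.0 CPM against 32.6, 29.8, 33.7 and 31.4 CPM and 72.1 to 74.8 CPM for the cytokines alone.

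Of induced genes that were lower in the Oli_ISR libraries, *Ear2*, a ribonuclease of the eosinophil-associated family, was at 13.8, 11.2, 18.2 and 10.6 CPM against 53.5, 47.4, 70.1 and 35.1 CPM (log2 -1.95 ± 0.16, adjusted *P* = 4.08e-09), and 43% of its words occur in other genes. *Apol7c*, an apolipoprotein L gene, differed by -1.56 ± 0.15, with 64.5% of its words shared. *Prps1*, which makes the ribose phosphate donor of nucleotide synthesis, was at 53.3, 57.0, 53.4 and 58.0 CPM against 94.1, 97.6, 90.2 and 103 CPM and 40.1 to 45.1 CPM with cytokines alone, so it was raised by 1.17 in the Sal003 libraries (log2 -0.80 ± 0.05 between the groups). *Tfrc*, the transferrin receptor gene, differed by -0.80 ± 0.14, *Olr1*, a receptor for oxidized LDL, by -0.83 ± 0.14 and *Neurl1b* by -0.75 ± 0.13. Among the 6 induced genes with the narrowest intervals, *Plekha3*, *Cluh*, *Fyn*, *Rrp8* and *Pfkp* were at -0.03, -0.06, 0.16, -0.23 and 0.34. These intervals lay within 1.5-fold, but *Fyn*, *Rrp8* and *Pfkp* still passed the test. *Rrp8* and *Pfkp* did so under every alternative (adjusted *P* at most 0.00851 and 0.000404), whereas *Plekha3* and *Cluh* passed under none.

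Genes of the IL-4 receptor pathway leaned lower. Of 13, 5 fell and none rose (median -0.15): *Il2rg*, the shared γ chain, by -0.38 ± 0.06, *Irs2* by -0.38 ± 0.10, *Jak3* by -0.35 ± 0.08 and the phosphatase gene *Ptpn6* by -0.31 ± 0.05 were the named ones. *Irs2* lost its call without mouse 4 (adjusted *P* = 0.0536) or its Sal003 library alone (0.0543, the highest over all alternatives). *Jak1* and *Jak2* were at -0.03 and -0.03. *Il2rg* was above the cytokine range of 103 to 111 CPM in both groups, at 138, 157, 134 and 148 CPM and 188, 182, 179 and 205 CPM. Genes of MHC class II presentation and costimulation had 7 of 11 lower and none higher (median -0.34). *Ciita*, the master regulator of MHC class II genes, was at 65.3, 59.1, 57.9 and 59.2 CPM against 90.8, 98.0, 104 and 89.8 CPM (log2 -0.66 ± 0.07, adjusted *P* = 1.66e-07), and *H2-Aa*, *H2-Eb1* and *H2-DMa* differed by -0.48 ± 0.09, -0.49 ± 0.09 and -0.43 ± 0.08.

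Interferon-stimulated genes were far above the cytokine libraries in both groups, with list medians of 2.7 for Oli_ISR and 2.91 for Sal003, yet none of the 24 passed between the groups (median -0.15). Here edgeR's test found 0 of 24 with or without mouse as a block over all libraries, and 1 higher and 13 lower when the block was fitted to the 8 libraries alone. Leaving out the Sal003 library of mouse 5 turned the list median to 0.02 with 1 gene higher, and leaving out that of mouse 4 gave 1 gene lower. The mice differed widely: *Ifit2*, an antiviral RNA-binding protein gene, was at 296, 594, 158 and 569.6 CPM against 415, 536, 194 and 837 CPM, and *Rsad2*, viperin, at 157, 283, 94.6 and 256 CPM against 138, 173, 69.0 and 249 CPM. Their intervals were -0.96 to 0.37 and -0.23 to 0.89, so *Ifit2* may be lower and *Rsad2* higher by more than 1.5-fold. Of 20 inflammatory genes, 2 rose and 3 fell, beside 9.74% and 8.77% of all genes. *Il1rn*, the IL-1 receptor antagonist, rose by 0.96 ± 0.17 and *Nfkbiz* by 0.64 ± 0.11. Among the falls were *Acod1*, which makes itaconate, at -0.93 ± 0.24 and the chemokine *Ccl5* at -0.74 ± 0.24.

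**Figure D5:**
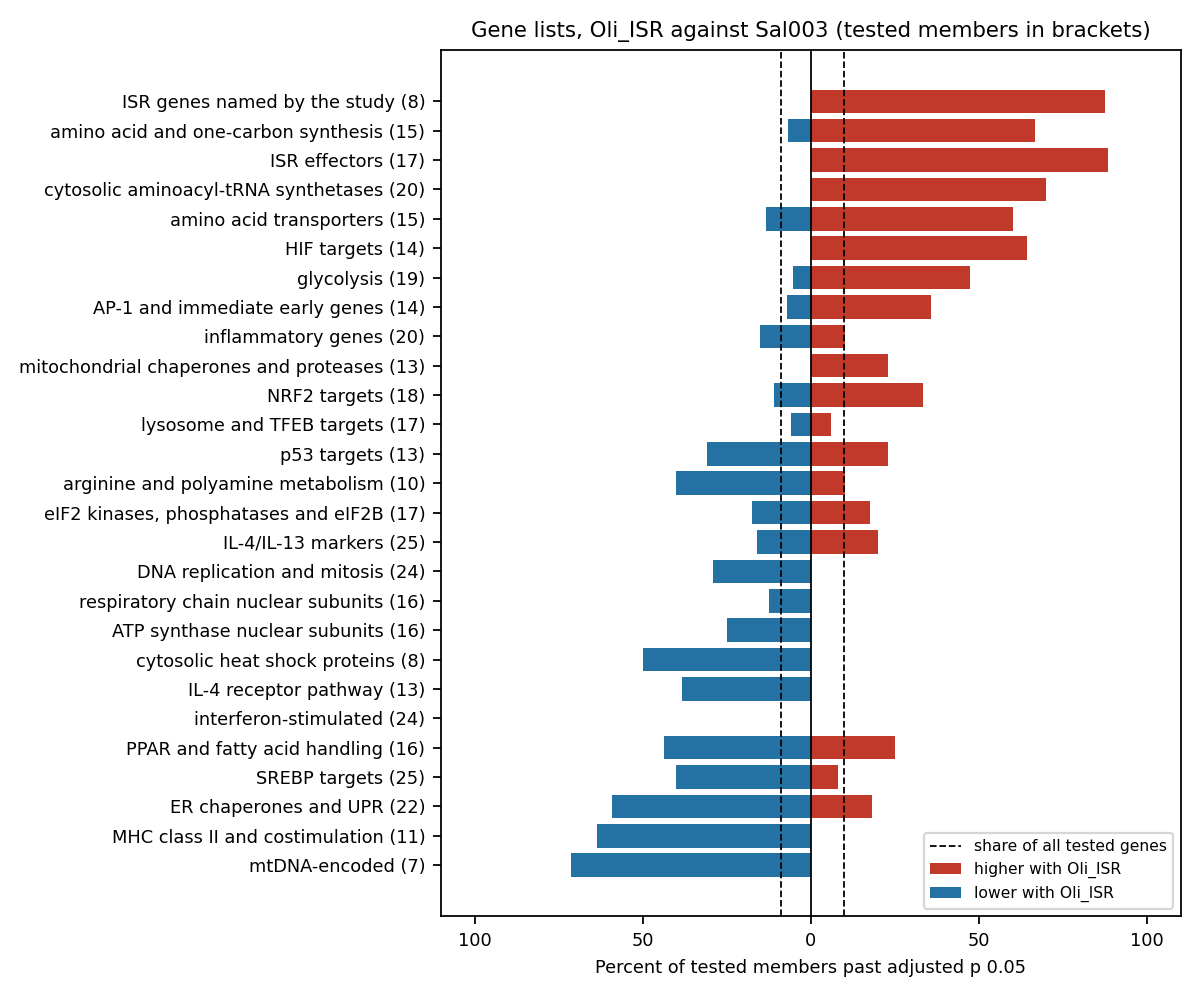
Percent of each list's tested genes (their number in brackets) that were higher (right) or lower (left) in the Oli_ISR libraries, with dashed lines at the shares among all tested genes. Bars for 15 of 17 ISR effectors point right and those for 5 of 7 mtDNA-encoded genes point left.

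Metabolic lists divided further. Hypoxia-inducible factor (HIF) targets had 9 of 14 higher and none lower (median 0.27). *Vegfa*, vascular endothelial growth factor A, was at 149, 154, 166 and 161 CPM against 54.4, 50.5, 50.7 and 51.2 CPM, and at 40.6 to 46.8 CPM with cytokines alone, 3.04-fold higher in the Oli_ISR libraries (log2 1.61 ± 0.07, adjusted *P* = 2.39e-14). *Ero1a*, an ER oxidase, differed by 0.72 ± 0.09. Glycolysis genes had 9 of 19 higher and 1 lower (median 0.23), with the glucose transporter *Slc2a1* at 0.67 ± 0.09, the lactate exporter *Slc16a3* at 0.64 ± 0.08 and *Pfkl* at 0.61 ± 0.08, whereas *Ldha* was at -0.03 and *Pkm* at -0.05. *Hk1* was the 1 that fell, at -0.20 ± 0.06.

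Targets of SREBP, which drive cholesterol and fatty acid synthesis, had 10 of 25 lower and 2 higher (median -0.22), with *Stard4*, *Fdps* and *Nsdhl* at -0.45 ± 0.08, -0.44 ± 0.08 and -0.39 ± 0.07. The 2 higher were the desaturase genes *Scd1* (0.82 ± 0.15) and *Scd2* (0.32 ± 0.08). Among 16 genes of PPAR signaling and fatty acid handling, 7 fell and 4 rose. *Angptl4*, an inhibitor of lipoprotein lipase, was at 5.42, 7.22, 7.35 and 6.89 CPM against 19.6, 20.2, 19.1 and 20.1 CPM (log2 -1.56 ± 0.14, adjusted *P* = 1.65e-08). Its cytokine range was 8.47 to 12.8 CPM, between both groups. *Plin2*, of the lipid droplet coat, differed by -0.49 ± 0.06 and *Cpt1a*, which admits fatty acids to mitochondria, by -0.40 ± 0.07, while the cholesterol exporter *Abca1* was higher by 0.60 ± 0.11. Of 18 NRF2 targets 6 rose and 2 fell, with *Slc7a11*, the cystine transporter, at 0.74 ± 0.14 and *Hmox1* at -0.20 ± 0.06. Among 10 genes of arginine and polyamine metabolism *Arg1* rose and 4 fell, among them *Oat* at -0.35 ± 0.05.

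DNA replication and mitosis genes had 7 of 24 lower, with *Mcm4* at -0.47 ± 0.06 and *Mcm5* at -0.41 ± 0.09, while *Mki67* and *Top2a* were at 0.05 and 0.01. Of 13 p53 targets 3 rose and 4 fell, with *Sesn1* and *Trp53inp1* at -0.47 ± 0.05 and -0.39 ± 0.05. Of 17 lysosome genes *Sqstm1*, the autophagy receptor p62, rose by 0.73 ± 0.05 and *Lamp1* fell by 0.22. Cytosolic heat shock proteins had 4 of 8 lower, led by *Hspa8* at -0.55 ± 0.04. AP-1 and immediate early genes had 5 of 14 higher and 1 lower, with *Nr4a1* at 0.69 ± 0.18 and *Ier3* at -0.49 ± 0.10.

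Some leading genes belonged to none of these pathways. *Hid1* was at 5.74, 5.56, 4.35 and 4.99 CPM against 1.04, 1.07, 0.566 and 1.03 CPM (log2 2.46 ± 0.19, adjusted *P* = 6.13e-10), with 0.613 to 1.21 CPM for the cytokines alone. *AW112010* was at 11.1, 14.4, 10.2 and 12.9 CPM against 27.0, 27.5, 20.9 and 35.3 CPM (log2 -1.19 ± 0.14) and the acute-phase gene *Saa3* at 2.06, 3.58, 4.41 and 2.90 CPM against 7.32, 8.52, 6.57 and 10.9 CPM (log2 -1.38 ± 0.26). Against the cytokine libraries these genes were higher by 0.89 and 0.82 in the Oli_ISR libraries and by 2.08 and 2.20 in the Sal003 libraries on the log2 scale. *Cbr2*, a carbonyl reductase gene, and *Pira12*, an immunoglobulin-like receptor gene, differed by -1.13 ± 0.15 and -1.13 ± 0.10, and 81.4% of the words of *Pira12* are shared with other genes.

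Some markers of neutrophils moved with the comparison, at low levels. Of 7 tested, 4 were higher in the Oli_ISR libraries and none passed as lower (median 1.40). The other 3 did not pass, the lowest at a log2 difference of -0.46, and *Elane* and *Ly6g* were too low to test. *Ngp*, a granule protein, was at 4.82, 4.85, 5.82 and 5.73 CPM against 0.882, 1.24, 0.906 and 1.75 CPM (log2 2.14 ± 0.24, adjusted *P* = 4.91e-07). *Ltf*, lactoferrin, was at 3.25, 4.79, 5.99 and 6.19 CPM against 0.882, 0.733, 2.38 and 1.65 CPM, and *S100a9* differed by 1.76 ± 0.27. The 9 markers summed to 19.0 to 24.9 CPM in the Oli_ISR libraries, 5.19 to 8.55 CPM in the Sal003 libraries and 24.3 to 45.0 CPM with the cytokines alone, and none was at 0 in all libraries of a group. Their part in the other results was not tested. Sums of the other marker lists overlapped between the groups: dendritic cell markers summed to 2.22 to 4.57 against 2.75 to 3.96 CPM, with *Xcr1* too low to test, fibroblast markers to 7.98 to 53.3 against 7.77 to 48.1 CPM and lymphocyte markers to 0.11 to 0.27 against 0.17 to 0.42 CPM, with 4 and 3 of the 7 at 0 in all libraries of the group. Of 4 tested dendritic cell markers 1 fell, of 5 fibroblast markers none passed, and the 1 tested mast cell or basophil marker did not pass. Osteoclast and giant cell markers summed to 93.9 to 134 against 87.6 to 117 CPM, with *Ocstamp* and *Dcstamp* the 2 of 4 that rose.

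Other genes named above with at least 20% of their words in other genes, whose counts are less certain for that reason, were *Ch25h* (49.2%), *Cish* (23.8%), *Csf1r* (20.4%), *Eif2b1* (31.6%), *Hspa8* (24.8%), *Hspa9* (22.7%), *Hspe1* (23.8%), *Ier3* (33.2%), *Itgam* (66.1%), *Lamp1* (43.4%), *Ldha* (21.1%), *Mars1* (42.5%), *Mgl2* (20.7%), *Pfkl* (36.4%), *Pkm* (38.2%), *Prps1* (21.1%), *Slc16a3* (39.4%) and *Yars1* (23.6%).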

How the data were processed

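mRNA libraries from 24 BMDM cultures (4 mice, 6 conditions) were measured by RNA-seq. The authors deposited a table of raw HTSeq counts per gene. The submitters' processing notes name cutadapt 1.8, STAR 2.7, HTSeq 0.9.1, RSEM 1.2.31 and GRCm39, and whether counting used strand is not given in the sources used here, so overlapping genes may share counts. The 5 totals that belong to no gene were left out of library sizes (12.7% to 13.9% of counts in the 8 libraries). A table of TPM values was not used because its header has 28 names over 25 cells. The labels give M-CSF in µg/ml and the study's methods in ng/ml.

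Counts were tested with edgeR 4.0.16 in R 4.3.3, with TMM scaling, filterByExpr by group and 1 quasi-likelihood model over 24 libraries, without a mouse term. A gene was called at a Benjamini-Hochberg adjusted *P* below 0.05, or with at least a 2.5-fold difference in addition. DESeq2 1.42.0, other scaling and filters, fits to 8 libraries, left-out libraries and a mouse block were alternatives. Mouse numbers come from the titles and were taken to pair the samples. The deviations of libraries of the same mouse correlated at 0.174 to 0.550, beside -0.411 to 0.240 for libraries of different mice. These ranges overlap, but for each library the same-mouse value was the highest. Scripts were tested on simulated data. Shared sequence is the percent of 31-base transcript words found in other genes, and promoter windows were read from GRCm39 by GENCODE starts.

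Genes, lists and tests were chosen with earlier results of these data known. Named genes were the 10 largest rises and 10 largest falls at adjusted *P* below 0.05 with the same direction in all 4 mice. All tested IL-4/IL-13 markers, mtDNA genes and ISR genes that the study names were added, without a count limit. Each other list gave up to 4 genes per direction. Up to 6 induced genes per direction and 6 of narrowest interval were added. Outside the full lists, a mean of at least 50 counts was required. Genes named by their promoter match or as the only member of a small count were chosen after their values were seen. Not every gene that the rule named is reported here, and counts include those left out.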

Additional observations from a re-analysis of the deposited data

Results flagged for a closer look

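In groups of 4, a library counted as standing apart when its gap to the nearest other library was over 0.829 of the group's range. This held for 23 of 524 groups of values, and chance alone gives about 1 in 20. Among Oli_ISR libraries, mouse 4 stood above the others for *mt-Co1* (gap share 0.951), *mt-Nd2* (0.842, 273 CPM against 188 to 199) and *Gpnmb* (0.906), and for the mtDNA share of counts (0.866, 0.269% against 0.198% to 0.208%). Its *mt-Nd2* and mtDNA share were still below all Sal003 libraries. The Oli_ISR library of mouse 1 stood above the others for *Got1* (0.902, 160 CPM against 151 to 152), *Il13ra1* (0.864, 14.9 CPM against 12 to 12.3) and *Ldha* (0.841), and below them for *Cpt1a* (0.879, 184 CPM against 198 to 200). That of mouse 2 stood below for *Atp5me* (0.832, 12.6 CPM against 16 to 16.8). That of mouse 5 stood below for *Penk* (0.836, 20.2 CPM against 23.0 to 23.6) and above for *Shmt2* (0.837, 71.6 CPM against 68.0 to 68.6).

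Among Sal003 libraries, that of mouse 4 stood above the others for *Cd14* (0.897, 42.9 CPM against 33.7 to 34.6), *Irs2* (0.928, 77.8 CPM against 60.6 to 61.7) and *Mki67* (0.967, 13.6 CPM against 9.76 to 9.87). It stood below them for *Eif2b1* (0.973, 25.4 CPM against 27.1), *Slc7a1* (0.844, 24.5 CPM against 26.3 to 26.7) and *Hid1* (0.935, 0.566 CPM against 1.03 to 1.07). The Sal003 library of mouse 5 stood below for *Ankrd37* (0.912, 0.927 CPM against 1.98 to 2.13) and *Sdhb* (0.838, 138 CPM against 141) and above for *Hars1* (0.874, 58.7 CPM against 53.2 to 53.9). That of mouse 1 stood below for *mt-Nd6* (0.909, 5.09 CPM against 7.22 to 7.47), and that of mouse 2 for *P4ha2* (0.841, 2.20 CPM against 2.80 to 2.93).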

How the results depend on the processing

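Requiring at least 10 counts in every library of both groups left 11670 of 13679 genes tested. Of these, 25 were higher and 9 lower by 2.5-fold, and 3 induced genes were lower by that much. Only 34 of the 68 calls at 2.5-fold were thus kept when genes with lower counts in any of the 8 libraries were left out. Fitting only the 8 libraries left 11 genes lower by 2.5-fold, and with mouse as a block in that fit 11 were lower by 2.5-fold. With that block 1986 genes were higher and 2141 lower at adjusted *P* below 0.05. Among induced genes 161 were then higher and 98 lower. At a 2-fold threshold 105 genes were higher and 45 lower, 29 and 12 of the induced ones. With induction set at 2-fold the induced set grew to 1058 genes, of which 148 were higher and 108 lower at adjusted *P* below 0.05. Leaving out 1 mouse or 1 library gave 857 to 1279 genes higher, 768 to 1091 lower, 40 to 53 higher and 19 to 30 lower by 2.5-fold. Among induced genes the ranges were 71 to 121 higher, 43 to 77 lower, 10 to 16 higher and 6 to 8 lower by 2.5-fold. The mtDNA share differed by -0.168 points with mice as blocks (exact *P* = 0.125, the smallest possible) and by -0.184 to -0.141 points without 1 mouse (exact *P* = 0.100, the smallest that 3 against 3 allow). Over 24 libraries the mouse block ended no call of a named gene and added 8 of 261, *Mgl2*, *Socs1*, *Rnase2a*, *Adgre1*, *Atp6v0d2*, *Htra2*, *Il13ra1* and *Pmaip1*, changed no other such call, and over 8 libraries added 43. DESeq2 called 53 genes at 2.5-fold, of which 51 were among the 68 reported.

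Of 155 named genes past the threshold, 116 passed under every alternative, and of 106 not past it, 60 passed under none. No called gene reversed, and 29 uncalled genes changed sign. Fitting only the 8 libraries ended 12 calls, among them *Ccl5*, *Cd14*, *Flt1*, *Irf4*, *Retnla* and *Scd2*, and dropping the count filter ended 6, among them *Eif2b1*, *Fyn* and *Pparg*. Beside the losses given in the results, leaving out mouse 1 ended the calls of *Atf6*, *Atp5mc3*, *Ccl5*, *Eif2b1*, *Fyn*, *Hmox1*, *Lamp1*, *Nr4a1* and *Scd2*, mouse 2 those of *Atf6*, *Atp5mc3*, *Eif2b1*, *Hmox1* and *Lamp1*, mouse 5 those of *Atp5mc3*, *Ccl5*, *Dnajb9*, *Eif2b1*, *Hmox1* and *Lamp1*, and mouse 4 or its Sal003 library that of *Hk1*. Single libraries whose omission ended a call were, from Oli_ISR, that of mouse 1 for *Atf6*, *Ccl5* and *Hmox1*, of mouse 2 for *Atp5mc3* and *Hmox1*, of mouse 4 for *Ccl5* and of mouse 5 for *Lamp1*. From Sal003 they were that of mouse 1 for *Atf6* and *Hmox1*, of mouse 4 for *Atp5mc3*, *Hmox1* and *Lamp1* and of mouse 5 for *Ccl5* and *Hmox1*. Genes of low count and genes with shared sequence are the least certain.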
